A study of Homo sapiens with 6 samples.

Results

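The CDK inhibitor genes are a set of 8 genes taken by name from the 21447 genes with transcripts in the deposited files. They are the 3 CIP/KIP genes CDKN1A, CDKN1B and CDKN1C, the 4 INK4 genes CDKN2A, CDKN2B, CDKN2C and CDKN2D, and CDKN3. Their messenger RNA was measured by bulk RNA sequencing (RNA-seq) in U-2 OS, a line of human osteosarcoma cells. One group of 3 libraries came from untreated cells, and the other group of 3 from cells given 4 Gy of ionizing radiation (IR) and taken 24 h later. Both groups are the same line with no other agent, so that only 1 cell line, 1 dose and 1 time were compared. The study calls the libraries of a group independent samples, and neither it nor the labels say whether these were separate cultures, so p-values measure the spread between these libraries. The comparison addresses which cell cycle regulators respond to DNA damage.

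Cyclin-dependent kinases (CDKs) drive the cell cycle when bound by cyclins. The CIP/KIP proteins p21 (CDKN1A), p27 (CDKN1B) and p57 (CDKN1C) bind cyclin and kinase together, and act above all on CDK2 complexes. The INK4 proteins p16 (CDKN2A), p15 (CDKN2B), p18 (CDKN2C) and p19 (CDKN2D) bind CDK4 and CDK6 and keep D-type cyclins from activating them. When these kinases are held back, the RB proteins stay bound to E2F factors and S phase genes stay low. CDKN1A is known for arresting cells after DNA damage, and CDKN2A also encodes ARF, an inhibitor of MDM2. CDKN3 stands apart from both families, since it is a phosphatase that removes an activating phosphate from CDK2 and is known as a gene of proliferating cells.

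The estimated counts totalled 18573309 to 22953834 in 5 libraries and 45308792 in IR replicate 3, the deepest, and 14323 genes passed the filter on low counts. Of the markers of the osteoblast and mesenchymal lineage, COL1A1, SPARC and VIM lay at 1465 CPM (counts scaled to a common library depth) or more in every library. RUNX2 ranged from 11.3 to 16.1 CPM, ALPL from 1.70 to 4.95 and COL1A2 from 0.977 to 2.14, whereas SP7 was at 0 and IBSP and BGLAP stayed below 0.25 CPM. The 9 markers summed to between 5855 and 6311 CPM in untreated and between 6208 and 6935 in IR libraries. Of the blood markers, CD3E and HBB were at 0 in every library, and PTPRC was at 1.27 to 1.76 CPM in untreated and 0.753 to 1.06 in IR libraries. The 3 epithelial markers summed to 11.4 to 12.6 and 11.9 to 14.3 CPM, with EPCAM at 8.55 to 10.6, and the 3 endothelial markers to 3.17 to 4.35 and 3.39 to 5.11. The part of these levels in the results below was not tested.

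CDKN1A rose strongly, CDKN1B and CDKN2C fell moderately, CDKN1C rose from a very low level with a call that depended on single libraries, and CDKN2A had no counts in any library. In all, 7 of the 8 genes passed the filter on low counts. Of these 7, edgeR's quasi-likelihood test called 4 (adjusted p under 0.05), 2 higher and 2 lower in IR libraries. Over all genes tested, 30.1% were called, 15.5% higher and 14.5% lower. For 5 of the 7 genes the ranges of the groups did not overlap, against 47.1% of all tested genes. In bulk samples a change in the share of cells that express a gene and a change in the amount of RNA per cell cannot be told apart.

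**Figure D1:**
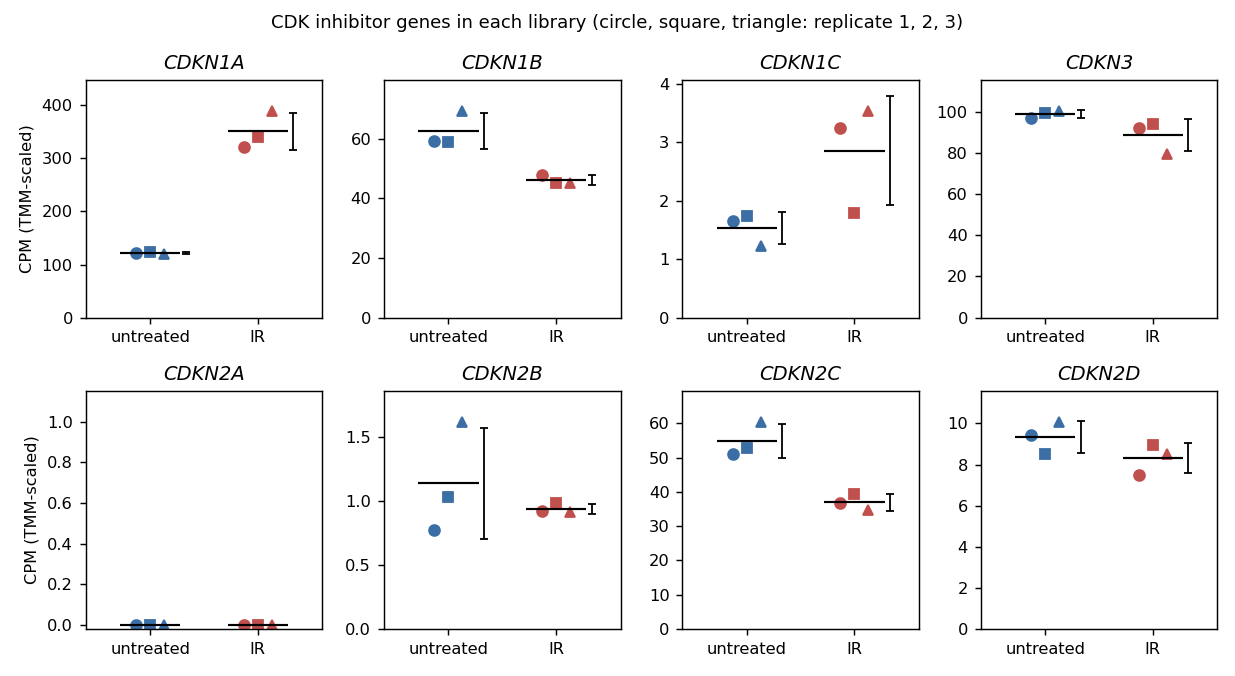
Level of each CDK inhibitor gene (vertical axes, TMM-scaled CPM from 0) in the 3 untreated and 3 IR libraries. Points are libraries, horizontal bars group means and vertical bars the SD; the 3 IR libraries of CDKN1A lie between 322 and 390 CPM and the untreated libraries between 120 and 124, and CDKN2A is at 0 throughout.

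CDKN1A (ENSG00000124762) lies on the plus strand of chromosome 6 at 36676460 to 36687337 (GRCh38), and the files hold 8 of its transcripts. The reference transcript, CDKN1A-201 (ENST00000244741), has 3 exons and starts at 36678714. Other first exons lie further upstream. One begins CDKN1A-204 and CDKN1A-208, the latter at 36676460, and a separate one at 36676528 begins CDKN1A-205. All 5 protein-coding transcripts share 1 coding sequence of 492 nucleotides whose first codon starts at 36684102, so that the choice of first exon changes the leader and not p21 itself. The stretch ahead of the reference start is shown because the transcript with most of the CDKN1A counts begins just behind it. It was taken from RefSeq (GRCh38.p14, chr6:36678464-36678713, plus strand), with GGGCGG, the core of GC boxes, in capitals:

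CDKN1A promoter: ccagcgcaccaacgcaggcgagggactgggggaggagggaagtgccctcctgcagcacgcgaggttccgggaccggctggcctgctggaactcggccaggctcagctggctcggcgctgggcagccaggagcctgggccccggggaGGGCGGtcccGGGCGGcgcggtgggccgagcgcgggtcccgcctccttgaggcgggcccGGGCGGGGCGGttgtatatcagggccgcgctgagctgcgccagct

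Both strands were searched and 4 matches were found, beginning 104, 94, 45 and 40 bases before the start, the last 2 of which overlap. GGGCGG on either strand occurred in 42.64% of the 35116 windows of 250 bases in the promoter table. The files hold no binding data, and a match is a description of the letters only.

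CDKN1A was measured at 122, 124 and 120 CPM in untreated replicates 1, 2 and 3. In IR replicates 1, 2 and 3 it was at 322, 341 and 390 CPM. Every IR library lay far above every untreated library, and the untreated libraries lay within a few CPM of each other. The underlying counts were 2226, 2774 and 2462 in untreated and 6660, 6266 and 17612 in IR libraries. The fitted log2 fold change was 1.53 (SE 0.079, 95% interval 1.35 to 1.70), a 2.88-fold rise, with an adjusted p of 2.82e-05 in edgeR's quasi-likelihood test. CDKN1A had the lowest p of all 14323 genes and was ranked 41 by log2 fold change. An adjusted p under 0.05 together with a log2 fold change above 1.5 was reached by 38 genes, or 0.265% of those tested. Measured against the untreated mean, the single IR libraries lay 1.40, 1.48 and 1.68 higher on the log2 scale, with the deepest library highest. The exact two-sided permutation test gave p = 0.1, the smallest that 3 libraries against 3 allow.

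CDKN1B (ENSG00000111276, chromosome 12 at 12685498 to 12722369, plus strand) encodes p27, which restrains CDK2 in resting cells. Untreated libraries held 59.4, 58.9 and 69.4 CPM of it, and IR libraries 48.0, 45.2 and 45.2 CPM. All 3 IR libraries lay below all 3 untreated libraries, opposite in direction to CDKN1A. CDKN1B fell by 0.44 on the log2 scale (SE 0.080, adjusted p = 0.00365 in edgeR's quasi-likelihood test), to 0.737 times the untreated level. With an offset for effective length the fall was larger, at -0.73 (adjusted p = 0.0187).

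CDKN1C (ENSG00000129757, chromosome 11 at 2883213 to 2885775, minus strand) encodes p57, known as an imprinted growth inhibitor. Its counts were 30, 39 and 25 in untreated and 67, 33 and 160 in IR libraries. Scaled for depth, these were 1.65, 1.74 and 1.22 CPM in untreated and 3.24, 1.80 and 3.54 CPM in IR libraries. IR replicates 1 and 3 stood clear of the untreated libraries, and IR replicate 2 exceeded the highest of them only narrowly. The fitted log2 fold change was 0.92 (SE 0.29, 95% interval 0.28 to 1.56), with an adjusted p of 0.0352 in edgeR's quasi-likelihood test. This call rested on single libraries, since it was lost without each of untreated replicates 1, 2 and 3 and IR replicates 1 and 3, with log2 fold changes of 0.71 to 1.02 and adjusted p of 0.0675 to 0.134. Without IR replicate 2 it was kept, at 1.14 (adjusted p = 0.0144). The replicate block (0.87, adjusted p = 0.0717), removal of the GC trend (0.78, adjusted p = 0.0646), both together (0.74, adjusted p = 0.103) and the length offset (1.11, adjusted p = 0.0568) also ended the call, without a change of direction.

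CDKN2A (ENSG00000147889, chromosome 9 at 21967752 to 21995301, minus strand) encodes p16 and ARF. The files list 14 of its transcripts, including those that begin at the p16 first exon and those that begin at the ARF first exon. Each of the 14 had an estimated count of 0 in each of the 6 libraries. A count of 0 allows up to 3 counts, which is 0.134 to 0.165 CPM in the untreated libraries and 0.0664 to 0.163 CPM in the IR libraries, from counting error alone. CDKN2A was therefore not detected at this depth in either group, and no fold change can be given.

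The nearest measured genes on both sides were looked up after the values of CDKN2A were seen. MTAP, which lies before CDKN2A and ends at 21937651, encodes an enzyme of methionine salvage and had 1154, 1523 and 1471 counts in untreated and 1106, 958 and 2258 in IR libraries. CDKN2B, on the other side, had counts in every library, and DMRTA1 beyond it, at 22446824 to 22455740, had 180, 251 and 260 counts in untreated and 213, 150 and 430 in IR libraries. CDKN2A was thus at 0 between neighbours that were measured.

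CDKN2B (ENSG00000147883, chromosome 9 at 22002903 to 22009305, minus strand) encodes p15, which is known to mediate arrest by TGF-beta. Its counts were 14, 23 and 33 in untreated and 19, 18 and 41 in IR libraries. The levels of 0.769, 1.03 and 1.61 CPM in untreated libraries enclosed the 0.920, 0.980 and 0.908 CPM of the IR libraries. The log2 fold change of -0.29 (95% interval -1.001 to 0.42) was not called (adjusted p = 0.521). It turned to 0.03 with the length offset and to 0.04 without untreated replicate 3, neither of them called.

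CDKN2C (ENSG00000123080, chromosome 1 at 50960745 to 50974634, plus strand) encodes p18 and was the INK4 gene with the highest level. It was at 51.0, 52.9 and 60.3 CPM in untreated and at 36.6, 39.4 and 34.6 CPM in IR libraries. Every IR library lay below every untreated library. CDKN2C fell by 0.57 on the log2 scale (SE 0.085, 95% interval -0.76 to -0.38, adjusted p = 0.00144), to 0.672 times the untreated level. In all 16 other fits it was called lower as well, between -0.62 and -0.50.

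CDKN2D (ENSG00000129355, chromosome 19 at 10566460 to 10569059, minus strand) encodes p19. Its levels were 9.44, 8.52 and 10.1 CPM in untreated and 7.503, 8.93 and 8.50 CPM in IR libraries, so that the groups overlapped. The log2 fold change was -0.17 (95% interval -0.45 to 0.11, adjusted p = 0.336). After removal of each library's trend with GC content it was called lower, at -0.46 (adjusted p = 0.0270), and with the replicate block added the value was -0.46 (adjusted p = 0.0481). CDKN2D has the highest GC content of the 7 genes with counts, 61.4% as a mean of its transcripts weighted by level.

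CDKN3 (ENSG00000100526, chromosome 14 at 54396849 to 54420218, plus strand) was at 97.1, 99.8 and 101 CPM in untreated and at 92.4, 94.3 and 79.7 CPM in IR libraries. The IR libraries lay below the untreated libraries without overlap, and IR replicate 3 was the lowest. The log2 fold change of -0.16 (95% interval -0.33 to 0.01) was nevertheless not called (adjusted p = 0.130). With the GC trend removed it was 0.01, with or without the replicate block. CDKN3 has the lowest GC content of the 7 genes, 39.6%.

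**Figure D2:**
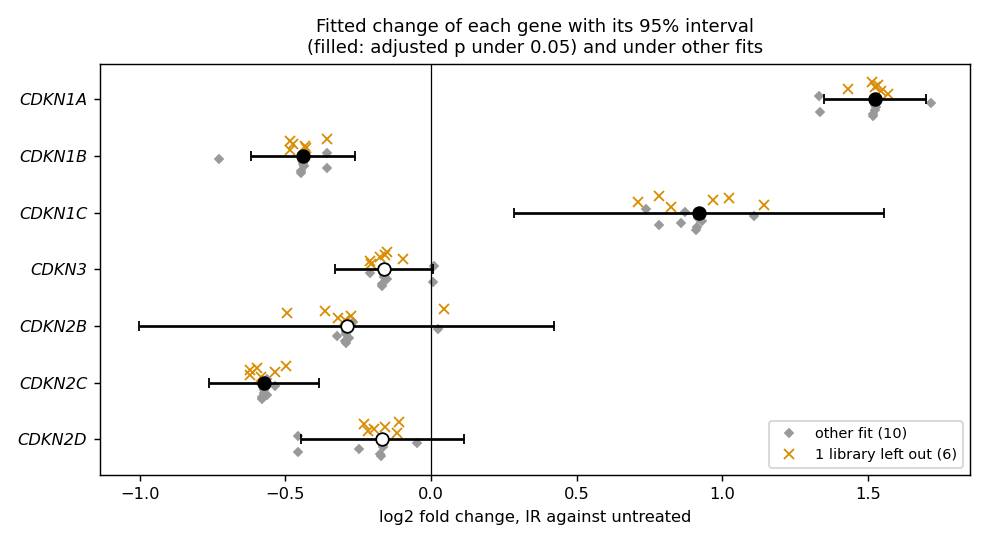
Fitted log2 fold change of each gene, IR against untreated (horizontal axis). Circles are the reported values with 95% intervals, filled where called, grey diamonds the 10 other fits and crosses the fits that leave out 1 library; CDKN1A stays between 1.33 and 1.72 and CDKN2C between -0.62 and -0.50, while the marks of CDKN2B and CDKN3 fall on both sides of 0.

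CDKN1A was called higher in all 16 other fits, with log2 fold changes from 1.33 after removal of the GC trend to 1.72 with the length offset. CDKN1B was called lower in all 16, between -0.73 and -0.36. The rise of CDKN1A and the falls of CDKN1B and CDKN2C therefore kept their call in every fit that was run, whereas CDKN1C and CDKN2D changed theirs.

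Levels of different genes were compared per length, on the TPM scale. This scale divides counts by transcript length, and then by the library's sum of these length-scaled counts. By mean TPM in untreated libraries the order was CDKN3, CDKN1B, CDKN1A, CDKN2C, CDKN2D, CDKN1C, CDKN2B and CDKN2A. CDKN3 stood at 353 ± 10.0 TPM (SD, n = 3) and CDKN1B at 74.4 ± 9.44. CDKN1A was at 56.7, 56.5 and 56.1 TPM and CDKN2C at 42.1, 42.9 and 57.2, so that these neighbours overlapped. CDKN2D was at 7.94 ± 0.790 TPM, CDKN1C at 1.45 ± 0.265 and CDKN2B at 0.522 ± 0.206 (SD, n = 3), each apart from its neighbours. After IR CDKN1A moved up to the second place, at 164, 145 and 233 TPM, between CDKN3 at 321, 314 and 247 and CDKN1B at 51.8, 39.6 and 39.2 TPM. The ranges of all neighbours were apart in the IR libraries.

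**Figure D3:**
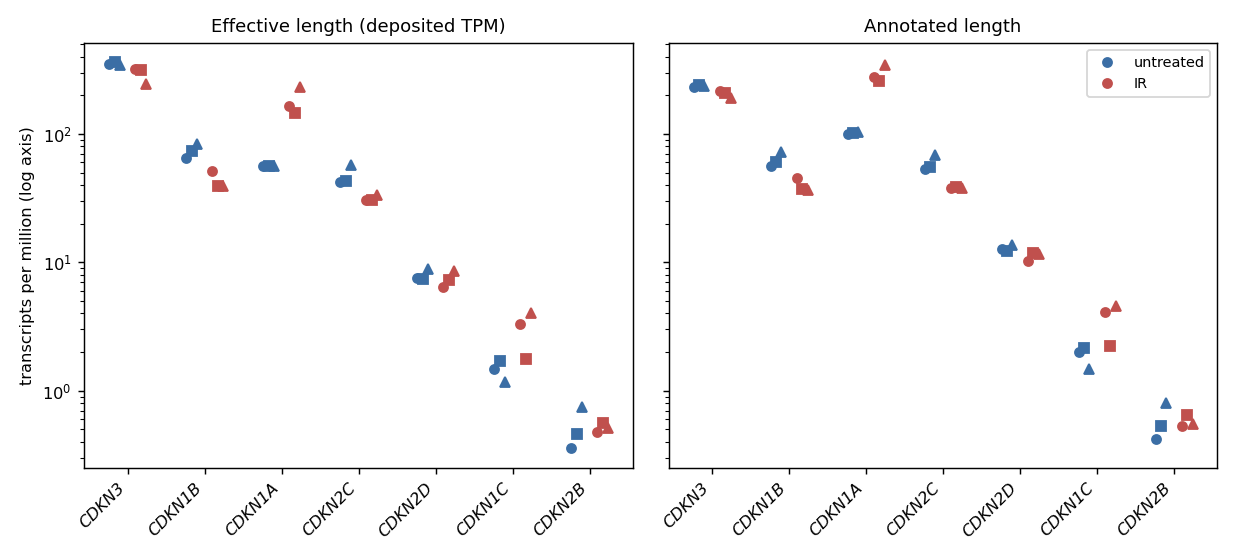
Level per length of the 7 genes with counts (vertical axis, TPM on a log axis), from the deposited TPM values (left) and from annotated lengths (right). Points are libraries, with untreated replicates in blue and IR replicates in red; CDKN1A passes CDKN1B after IR on the left and stands above it in both groups on the right.

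Part of this order depended on the length that was used. The effective length of CDKN1A-201 in the files was 3187, 3188 and 3422 bases in untreated and 3169, 3203 and 2773 bases in IR libraries, beyond its annotated length of 2117 bases. CDKN3-203 (ENST00000395577), with an annotated length of 637 bases and an effective length of 310 to 374, held 70.8% to 83.7% of the TPM of CDKN3. CDKN1B-204 (ENST00000477087), a transcript of 453 bases without a coding sequence, held 43.8%, 54.4% and 28.9% of the TPM of CDKN1B in untreated and 40.1%, 33.2% and 10.9% in IR libraries. With annotated lengths, an alternative chosen after the TPM values were seen, CDKN1A was at 102 ± 1.48 and CDKN1B at 63.3 ± 8.72 in untreated libraries (SD, n = 3). On that scale CDKN1A was the highest of the 8 in IR libraries, at 295 ± 45.5 against 204 ± 13.7 for CDKN3, and CDKN1B and CDKN2C overlapped in both groups. CDKN1A above CDKN1B in IR libraries, and CDKN2D, CDKN1C and CDKN2B in the lowest places above CDKN2A, held on both scales.

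Within the CIP/KIP genes, CDKN1A took 45.9%, 42.8% and 39.7% of the summed TPM in untreated libraries and 74.9%, 77.8% and 84.3% in IR libraries. The share of CDKN1B went from 52.9%, 55.9% and 59.5% to 23.6%, 21.2% and 14.2%. That of CDKN1C was 0.825% to 1.28% in untreated and 0.947% to 1.51% in IR libraries, with overlap. The IR mean exceeded the untreated mean of the CDKN1A share by 36.2 percentage points (exact two-sided permutation p = 0.1, the smallest possible with 3 against 3). The difference was 22.1 points in CPM, without a correction for length, and 26.01 points with annotated lengths. Each IR library had a larger CDKN1A share than each untreated library on these 3 scales. The shares are parts of the same sum, so that a rise of CDKN1A by itself lowers the share of CDKN1B.

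The transcripts of CDKN1A differed in how widely they spread between libraries. CDKN1A-201 had 1480, 2389 and 2291 estimated counts in untreated and 5893, 5819 and 16234 in IR libraries. CDKN1A-208, with an upstream first exon, had 670, 173 and 3.04 in untreated and 351, 58.8 and 198 in IR libraries. The replicates of CDKN1A-208 thus spread more widely than the groups differed. Summed by the region of the first exon, a grouping chosen after the values were seen, the 3 upstream transcripts held 30.6%, 6.36% and 2.16% of the CDKN1A counts in untreated and 5.79%, 0.970% and 1.28% in IR libraries. The 5 transcripts that begin at the reference first exon lay at 84.8, 116 and 118 CPM in untreated and at 304, 338 and 385 CPM in IR libraries. The upstream transcripts lay at 37.5, 7.87 and 2.60 CPM and at 18.7, 3.31 and 4.98 CPM, with overlap.

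**Figure D4:**
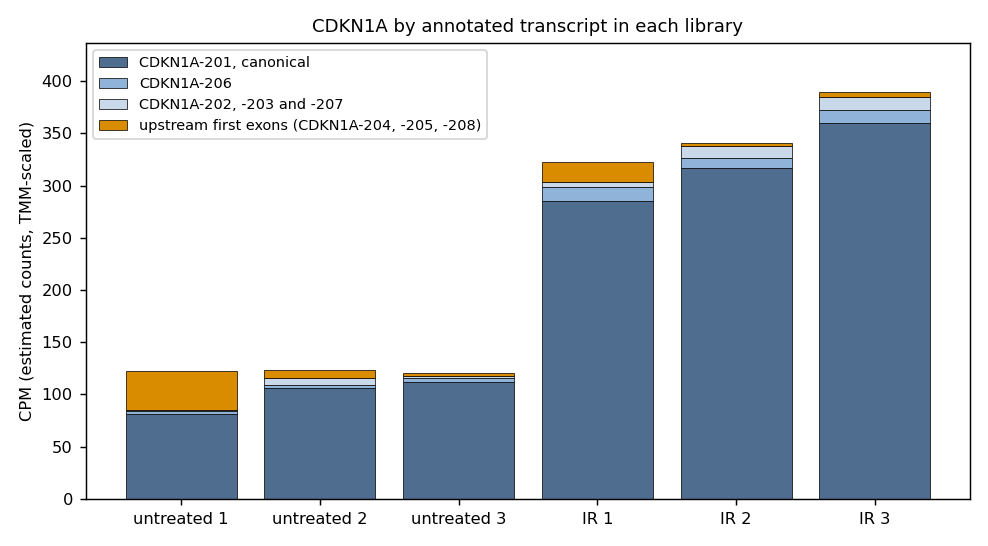
CDKN1A in each library (bars from 0, TMM-scaled CPM), divided by annotated transcript. The 3 untreated bars reach similar heights while the orange part, from transcripts with an upstream first exon, ranges from 37.5 CPM in untreated replicate 1 to 2.60 in untreated replicate 3.

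The test per transcript called 0 of 56752 transcripts in either direction. At an unadjusted p under 0.05 there were 6090, beside 2838 expected by chance. The lack of calls therefore does not mean that no transcript changed. CDKN1A-201 had a log2 fold change of 1.71 (SE 0.16) with an adjusted p of 0.130 in edgeR's quasi-likelihood test, and its groups did not overlap. CDKN1A-206 (ENST00000462537), a short transcript of 553 bases without a coding sequence, had 49.9, 56.5 and 79.9 counts in untreated and 278, 181 and 562 in IR libraries. Its log2 fold change was 1.99 (SE 0.27, adjusted p = 0.143), also without overlap. For CDKN1A-208 the value was -0.84 with an SE of 1.57 (adjusted p = 0.911), and it changed sign with the replicate block (0.20) and without untreated replicate 1 (1.08). The other 4 transcripts tested overlapped between groups. Assignment of reads among transcripts that share most of their sequence adds an error within each library that this test does not hold.

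Transcript usage, the share of each transcript in its gene, was called for 291 of 10666 genes, or 2.73%. CDKN1A, CDKN1B, CDKN2C, CDKN2D and CDKN3 had enough transcripts to be tested, and none was called, with an adjusted p of 1.00 for each and unadjusted p from 0.543 for CDKN1A to 0.905 for CDKN2D. Within CDKN1A the lowest p of a single transcript was that of CDKN1A-208 (unadjusted p = 0.0775), whose share lay 1.66 lower on the natural log scale.

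Both main transcripts of CDKN2C were lower in every IR library, without a call. CDKN2C-203 (ENST00000396148) was at 32.3, 35.1 and 34.4 CPM in untreated and at 22.8, 23.5 and 22.4 CPM in IR libraries. CDKN2C-202 (ENST00000371761) was at 17.4, 16.9 and 25.4 CPM and at 12.5, 14.3 and 12.9 CPM. The ranges of the groups were apart for each of them, at log2 fold changes of -0.57 and -0.59 (adjusted p = 0.158 and 0.402). The coding CDKN1B-201 (ENST00000228872) was at 52.7, 50.1 and 52.2 CPM in untreated and at 41.1, 40.5 and 43.98 CPM in IR libraries, a log2 fold change of -0.30 (SE 0.078, adjusted p = 0.279). In CDKN1C, counts came mainly from CDKN1C-201 (ENST00000380725), at 0.885, 1.39 and 0.879 CPM in untreated and 2.74, 1.65 and 2.68 CPM in IR libraries.

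Across the 6 libraries, the log2 CPM of CDKN1A had a Pearson correlation of -0.94 with CDKN1B, -0.96 with CDKN2C and 0.80 with CDKN1C. It was -0.79 with CDKN3, -0.61 with CDKN2D and -0.33 with CDKN2B. These values describe 6 points in 2 groups that share library and depth, and give no independent support. Among 11672 other genes that averaged 100 counts or more, those most like CDKN1A were EPS8L2, MAOA, KIF7, SFT2D1 and CD82, with correlations of 0.998 to 0.999 over the same 6 libraries. CD82, a tetraspanin of the cell surface, was at 6.37, 6.47 and 6.25 CPM in untreated and at 12.1, 11.7 and 13.1 CPM in IR libraries. MAOA, the enzyme monoamine oxidase A, was at 42.0, 41.5 and 41.2 CPM and at 58.1, 58.4 and 62.8 CPM. The 5 genes were picked because they follow CDKN1A over these libraries. A rise in IR libraries is thus part of the choice and gives no independent support. All 5 were called higher, with log2 fold changes from 0.44 for SFT2D1 to 1.25 for EPS8L2. MAOA alone lost its call in another fit, the one with the length offset (0.22, adjusted p = 0.330).

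The lists of genes around the inhibitors are read beside the 15.5% of all genes tested that were called higher and the 14.5% called lower. Of 13 kinases and cyclins that the inhibitors bind 12 were tested, 2 of them called higher and 3 lower, counts near that background. Their median log2 fold change was -0.02 beside 0.01 over all genes tested, turned to 0.0045 without IR replicate 2 and lay at -0.066 without IR replicate 3. CCND2 was at 135, 132 and 139 CPM in untreated and at 206, 202 and 220 CPM in IR libraries. The D-type cyclins CCND2 (0.63, SE 0.063, adjusted p = 0.000291) and CCND1 (0.52, SE 0.069, adjusted p = 0.000916) were the ones that rose. CCNE2, an E-type cyclin that activates CDK2, was at 18.4, 18.5 and 18.7 CPM and at 10.5, 12.3 and 11.3 CPM, the largest fall of the list (-0.71, SE 0.094, adjusted p = 0.000925). CDK6 also fell (-0.35, adjusted p = 0.00742), a call lost with the length offset (-0.34, adjusted p = 0.0538) and with the replicate block and GC trend together (-0.19, adjusted p = 0.0677). CDK2 (-0.01, 95% interval -0.15 to 0.12), CDK4 (0.07, -0.14 to 0.28) and CCNE1 (0.10, -0.05 to 0.25) were not called.

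**Figure D5:**
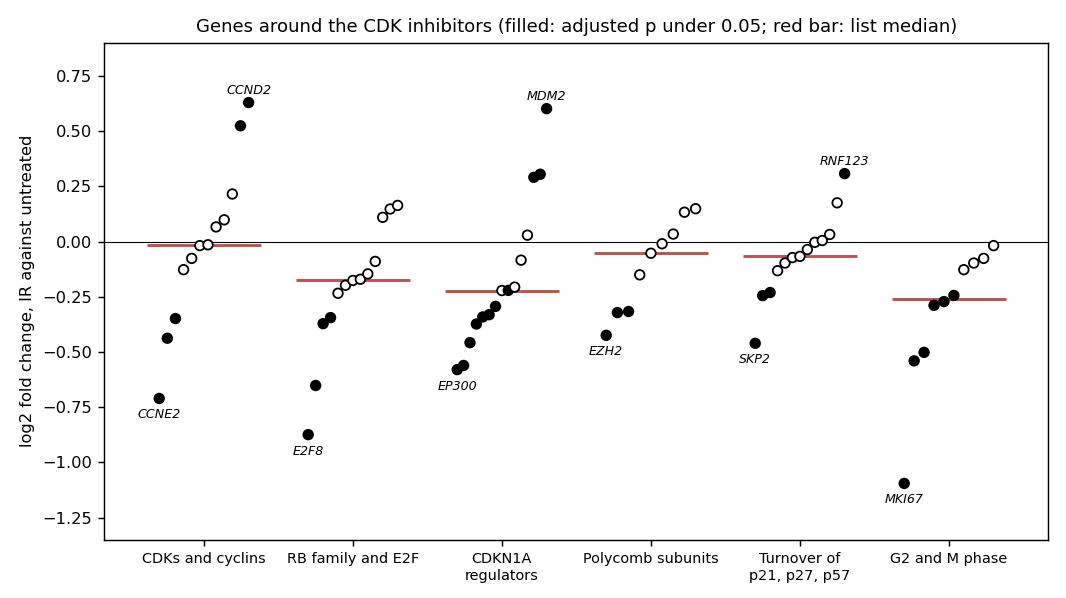
Log2 fold change, IR against untreated (vertical axis), of each tested gene in 6 lists around the CDK inhibitors. Filled points were called, open points were not, and the red bars are list medians, which lie between -0.26 for G2 and M phase genes and -0.02 for CDKs and cyclins.

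In the list of the RB family and E2F factors, 4 of 13 genes were called lower and none of them higher, beside 14.5% lower over all genes, with a median of -0.18. With the GC trend removed, with or without the block, 1 was called higher and 4 lower, at a median of -0.08. With 1 library left out the median ranged from -0.13 without untreated replicate 1 to -0.25 without IR replicate 1. E2F8, a repressor of E2F targets that is itself induced in S phase, was at 23.2, 22.2 and 21.2 CPM in untreated and at 12.7, 12.4 and 11.4 CPM in IR libraries (-0.87, SE 0.089, adjusted p = 0.000291). RB1, whose protein is the substrate that CDK4, CDK6 and CDK2 inactivate, was at 69.2, 70.5 and 70.2 CPM and at 60.4, 52.98 and 52.2 CPM (-0.34, SE 0.074, adjusted p = 0.00745). That call was lost with the GC trend removed (-0.14, adjusted p = 0.106), with the block added (-0.14, adjusted p = 0.176) and with the length offset (-0.31, adjusted p = 0.0824), under which 2 genes of the list were called lower.

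Of 15 listed regulators of CDKN1A transcription and of damage signalling, 3 were called higher and 8 lower, with a median of -0.22. Over all genes tested, 15.5% were called higher and 14.5% lower. MDM2, a ubiquitin ligase that is induced by DNA damage, was at 135, 141 and 146 CPM and at 216, 215 and 209 CPM. It rose by 0.60 on the log2 scale (SE 0.061, adjusted p = 0.000291), against 1.53 for CDKN1A. EP300, a histone acetyltransferase and transcriptional coactivator, was at 143, 159 and 135 CPM and at 105, 99.7 and 87.6 CPM, the largest fall of the list (-0.58, SE 0.088, adjusted p = 0.00164). With the length offset the counts of this list were 1 higher and 3 lower, and with the replicate block 1 higher and 7 lower. With 1 library left out they were 1 or 2 higher and 5 to 8 lower, with 1 higher without untreated replicate 1 or IR replicate 1 and 5 lower without untreated replicate 2.

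Polycomb complexes are known to hold the CDKN2A and CDKN2B locus silent. Of 9 subunits listed, 3 were called lower and none of the 9 higher, beside 14.5% lower over all genes, with a median of -0.05. The median ranged from -0.01 without untreated replicate 1 to -0.10 without IR replicate 3, and was -0.12 with the GC trend removed or the length offset. In those fits and without untreated replicate 2 or 3 the count was 2 lower. EZH2, the methyltransferase subunit, was at 58.9, 56.9 and 57.3 CPM in untreated and at 42.5, 45.1 and 41.5 CPM in IR libraries (-0.42, SE 0.066, adjusted p = 0.00183). CDKN2A stayed at 0 counts and CDKN2B was not called in the same libraries. Whether the levels of these subunits bear on either gene was not tested.

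The proteins of the CIP/KIP family are also set by degradation, through ligases that do not act on RNA. Of 13 turnover genes, 1 was called higher and 3 lower, counts that differ little from the 15.5% and 14.5% over all genes. The median of -0.07 turned to 0.03 with the GC trend removed and was -0.18 with the length offset. It ranged from -0.02 without untreated replicate 3 to -0.13 without IR replicate 3. SKP2, the receptor that marks p27 for degradation, was at 123, 115 and 115 CPM in untreated and at 88.7, 82.9 and 84.8 CPM in IR libraries (-0.46, SE 0.064, adjusted p = 0.00117). RNF123, a ligase that acts on p27 in the cytoplasm, was called higher (0.31, adjusted p = 0.0260), but lost the call in 8 of 16 other fits, one of which turned it to -0.32, with the length offset (adjusted p = 0.147). With 1 library left out this list had 0 or 1 genes called higher and 1 to 4 lower, the 1 being without untreated replicate 2.

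Of 10 G2 and M phase genes 6 were called lower and none of the 10 higher, beside 14.5% lower over all genes, with a median of -0.26. MKI67, the gene of the proliferation marker Ki-67, was at 706, 768 and 673 CPM in untreated and at 391, 346 and 269 CPM in IR libraries (-1.10, SE 0.12, adjusted p = 0.000420). CCNB1 and CDK1 of this list were not called, at -0.02 and -0.13. With the length offset 3 of the 10 were called lower, and without untreated replicate 2 there were 4. The count was 7 with the GC trend removed, with or without the block, and without IR replicate 3.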

How the data were processed

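The 6 bulk RNA-seq libraries of U-2 OS (3 untreated, 3 at 24 h after 4 Gy of IR) were used. Per the study's methods, the authors ran fastp for adaptors and kallisto on GENCODE release 37 (GRCh38). They deposited an estimated count, without normalization, and a TPM value for each of 161171 transcripts. TPM values are scaled by effective length and by the library's sum of length-scaled counts. Versions of fastp and kallisto are not given in the sources used here. The effective length exceeded the length for 24.2% to 29.1% of transcripts, and the sources do not say which correction was applied. The study's methods name a total RNA kit, whereas the labels name poly(A) RNA, and whether counting used strand is not stated. An antisense gene overlaps each of CDKN1A (DINOL), CDKN2A (CDKN2B-AS1) and CDKN2C and is not among the transcripts used here.

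Identifiers were joined to GENCODE release 44, and the 2460 transcripts without a match (1.54% to 1.80% of counts) were dropped. Gene counts are rounded sums of estimated counts. Genes were filtered by filterByExpr, scaled by TMM and tested by edgeR 4.0.16 (glmQLFit, glmQLFTest, R 4.3.3), with Benjamini-Hochberg adjustment over all 14323 genes and a threshold of 0.05. Transcript usage was tested by diffSpliceDGE with Simes p-values. All adjusted p-values come from edgeR unless another tool is named, intervals are at 95%, and values after ± are SD. Each SE was derived from the log2 fold change and the F statistic of the quasi-likelihood test. The intervals use this SE with a t quantile. The depth of 18573309 to 45308792 counts limits values near 1 CPM, and limits from a count of 0 (3 counts) cover counting error only. No 2 libraries of a group agreed within sampling noise (chi-square per gene of 3.46 or more over 6 pairs).

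The alternatives were the filter on low counts (none, or at least 10 counts in every library), DESeq2 size factors and Wald test (1.42.0), edgeR's likelihood ratio test, the replicate number as a block, removal of each library's GC trend, block and GC removal together, an offset for effective length, thinning of IR replicate 3, and leaving out each library. Levels per annotated length and the grouping by first exon were added after the data were seen. The scripts were tested on simulated data. Genes and lists were chosen with earlier results of these data known. Named are the 8 members, from each list the called genes with the highest and lowest log2 fold change, further genes of the pathway (MDM2, CDK2, CDK4, CDK6, CCND1, CCNE1, SKP2 and RB1), and the 5 genes most correlated with CDKN1A. Some items that this rule or the lists select are not reported here.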

Additional observations from a re-analysis of the deposited data

How the results depend on the processing

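CDKN1A, CDKN1B and CDKN2C kept their direction and call in all 16 alternatives. CDKN1C kept its direction and lost its call with the replicate block (0.87), the GC trend removed (0.78), both (0.74), the length offset (1.11) and 5 of 6 libraries left out (0.71 to 1.14 over all 6). CDKN2D gained a call with the GC trend removed (-0.46) and with the block added (-0.46). Without a call, CDKN2B turned to 0.025 with the length offset and spanned -0.49 to 0.043 over libraries left out, CDKN3 turned to 0.0084 with the GC trend removed (0.0086 with the block), CDK4 to -0.075 and -0.079 in the same fits and -0.063 to 0.12 over libraries left out, and CDK2 spanned -0.039 to 0.00134. RNF123 turned to -0.32 with the length offset, and CDKN1A-208 to 0.20 with the block and -1.91 to 1.08 over libraries left out. Genes called higher numbered 833 and lower 875 with the length offset (2227 and 2080 as reported), 1467 higher with the block and GC trend removed, and 1295 to 2114 higher and 1244 to 2284 lower with 1 library left out, fewest without untreated replicates 1 and 2. Genes called for usage numbered 69 with at least 10 counts in every library, 151 with the replicate block and 240 to 456 with 1 library left out, most without untreated replicate 3 (291 as reported). Called transcripts numbered 1 under the stricter filter and 0 with the block or any library left out. The CDKN1A share of CIP/KIP differed by 22.1 points in CPM and 26.01 with annotated lengths, and by 33.6 to 38.3 with 1 library left out. Replicate numbers are shared between groups, and deviations of same-numbered libraries correlated at -0.021, 0.023 and -0.083. These values show no shared effect of the number, but cannot tell whether same-numbered libraries were handled together, which the sources do not state. The replicate block called 1727 genes higher and 1624 lower and gave 1.52 for CDKN1A, -0.44 for CDKN1B and -0.57 for CDKN2C. The causes of these changes were not tested. CDKN1C and CDKN2B rest on 14 to 160 counts per library, and CDKN2A was not detected at this depth.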
